A study of Mus musculus with 10 samples.

Results

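Immediate early response genes are switched on within minutes of a growth factor, cytokine or stress signal, without new protein synthesis. Kinases of the MAP kinase cascade act on factors already bound at their promoters, and the mRNAs that result are made and destroyed quickly, many of them through AU-rich elements in the message. The group holds transcription factors, such as the AP-1 proteins Fos and Jun, and brakes on the same signals, such as the phosphatase Dusp1. In fetal liver these genes can be read in blood-forming, hepatic, endothelial and stromal cells alike. The members were 10 genes taken by symbol: the AP-1 and related factors Fos, Jun, Junb and Atf3, the zinc finger factors Egr1, Klf2 and Klf6, and the response genes Ier2, Dusp1 and Btg2. Each probe set annotated with exactly 1 gene symbol among these was kept, which gave 16 probe sets for the 10 genes, of 18193 genes and 45037 probe sets in all. All 10 had at least 1 probe set, and 7 had a single one.

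The arrays compared 5 Zfp36l2 knockout (KO) livers with 5 wild type (WT) livers, each from a different mouse fetus at embryonic day 14.5 and all on a mixed b6 and 129 background. Zfp36l2 is a relative of tristetraprolin: its protein attaches to AU-rich stretches of mRNAs and hastens their decay. The sources used here do not say how the allele was made, which part of the gene it removes or which fetuses were littermates, and name no array batch. The values below are quantile-normalized linear intensities, and 16 was set as the floor before taking log2, so a value under 16 carries no order.

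The targeted gene was low in every KO liver. Its brightest probe set (1437626_at) averaged 102 ± 11.3 in KO livers and 434 ± 91.0 in WT livers (SD, n = 5 each), a log2 difference of -2.08 ± 0.13 (SE; limma adjusted p = 1.47e-06). A dimmer Zfp36l2 probe set, 1451034_at, averaged 25.05 in KO livers and 31.4 in WT livers (limma adjusted p = 0.858), and 1439054_at was below 0 in nearly all livers. The tissue's own markers were bright in all 10 livers, except the hepatoblast marker Tat, which lay under 16 in 6 of them. The 7 hepatoblast markers with a probe set, Afp and Alb the brightest, summed to between 59903 and 65232 in KO livers and between 61426 and 64738 in WT livers. The 8 erythroid markers, Hbb-y and Slc4a1 the brightest, summed to between 32828 and 41698 in KO livers and between 35721 and 41406 in WT livers. Such sums are led by the brightest genes. Of the 8 erythroid markers 6 had negative and 2 positive log2 differences, with a median of -0.19. Limma called 0 of the 8, against 0.328% of all genes, and 5 had an unadjusted limma p under 0.05, against 11.4%. Deposited array medians ran from 19.5 to 24.2 in KO livers and from 22.0 to 25.01 in WT livers. The correlation of an array with the others averaged between 0.953 and 0.959.

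None of the immediate early genes passed the test between the genotypes. Limma called 0 of the 14 member probe sets that entered it, where 0.211% of all 27022 tested probe sets were called, and 0 of the 14 had an unadjusted p under 0.05, against 9.75% of all (both directions). No tested member separated the genotypes without overlap, against 2.27% of tested probe sets. The log2 differences ran from -0.17 to 0.51, with 10 positive and 4 negative (49.2% of all tested probe sets were positive) and a median of 0.23, beside a median of -0.0043 over all tested probe sets. With 1 probe set a gene, 6 of 9 tested genes had positive differences, against 50.1% of all genes. Each value is for a whole liver, where fewer cells of a type and less RNA per cell cannot be told apart.

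**Figure D1:**
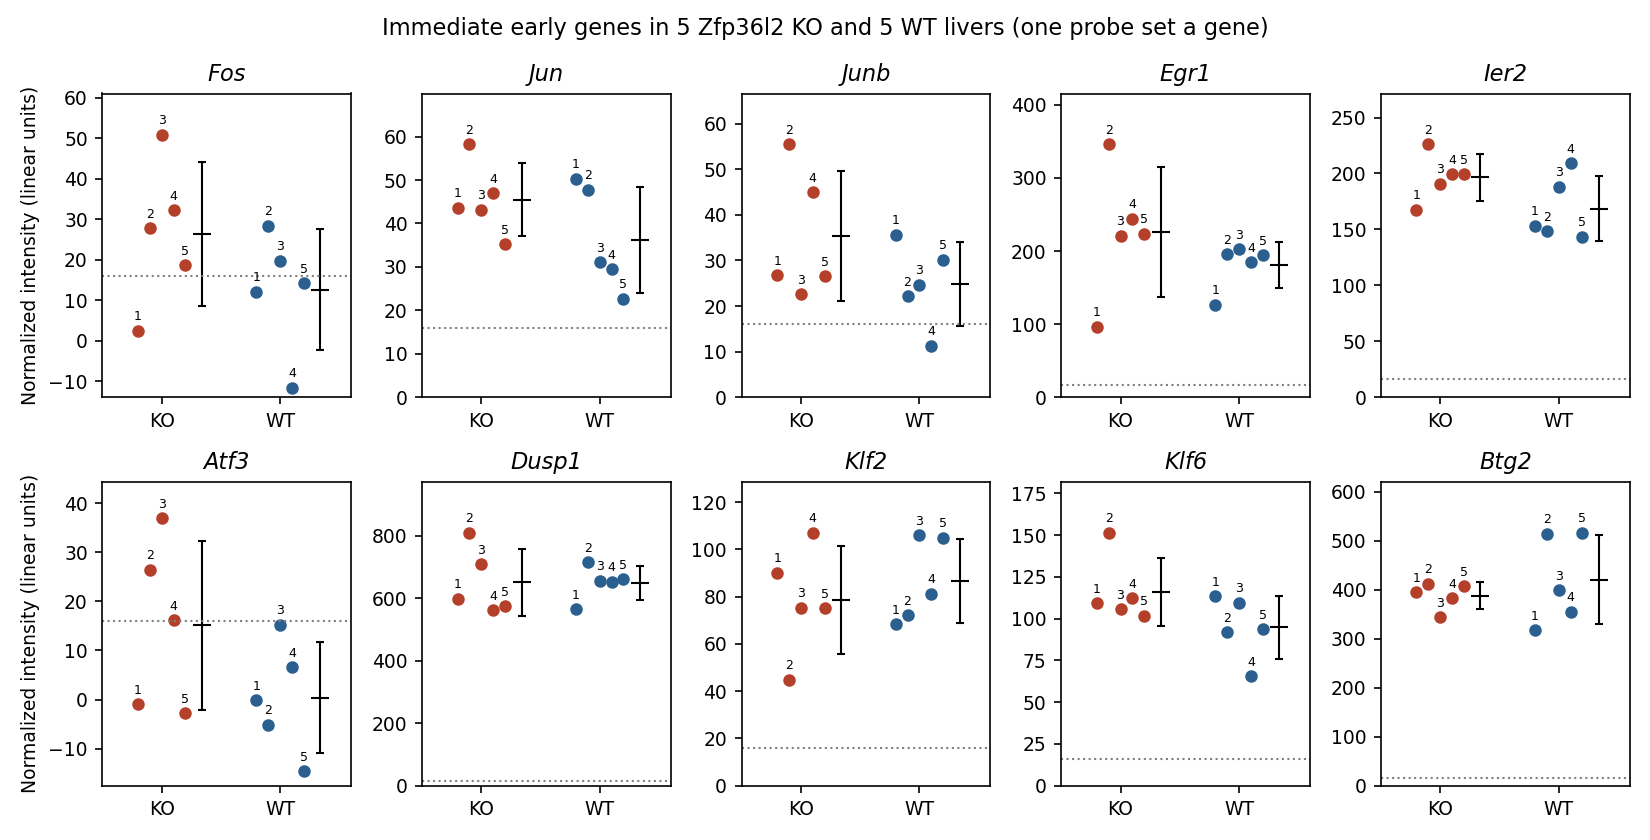
Normalized intensity (linear units) of the 10 genes, 1 probe set a gene, in KO livers (red, left) and WT livers (blue, right). Numbers are replicate numbers, black bars are mean ± SD over 5 livers and the dotted line is the floor of 16. In all 10 panels the genotypes overlap, and KO replicate 2 is the highest point for Jun, Junb, Egr1, Ier2, Dusp1 and Klf6 and the lowest for Klf2.

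Fos, which pairs with a Jun protein to form AP-1, was close to the floor. Its probe set (1423100_at) gave 2.44, 27.8, 50.8, 32.2 and 18.7 in KO livers, against 12.1, 28.4, 19.7, -11.6 and 14.2 in WT livers. The highest value was in KO replicate 3, and 1 KO and 3 WT livers lay under 16. The log2 difference was 0.51 ± 0.32 (SE; limma adjusted p = 0.649), with a 95% interval from -0.17 to 1.19. Values set to the floor enter this difference, so no fold is given. It was 0.28 without KO replicate 3, 0.13 with a floor of 32 and 2.89 with the lowest positive value as the floor, so its size depended on the floor.

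Atf3, a stress-induced factor of the same leucine zipper class, was also near the floor. It read -0.989, 26.5, 37.0, 16.1 and -2.76 in KO livers, against -0.189, -5.16, 15.3, 6.59 and -14.6 in WT livers. The 3 values over 16 were all in KO livers, and all 5 WT livers lay under it. The gene fell just short of the filter on dim probe sets and was not tested. With the filter at the 20th percentile limma gave it an adjusted p of 0.730.

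Jun, the main partner of Fos, was read by a pair of probe sets that gave different orders of the livers. Probe set 1417409_at gave 43.6, 58.3, 43.2, 46.999 and 35.2 in KO livers, against 50.3, 47.8, 31.0, 29.4 and 22.7 in WT livers, a log2 difference of 0.37 ± 0.28 (SE; limma adjusted p = 0.726). Probe set 1448694_at gave 30.5, 78.1, 31.7, 48.5 and 26.8 in KO livers, against 15.9, 6.86, 28.6, 69.2 and 42.6 in WT livers, a log2 difference of 0.44 ± 0.42 (limma adjusted p = 0.805). KO replicate 2 was highest on both, but WT replicate 4 was among the low livers on the first and second highest on the other. Leaving out 1 liver gave log2 differences from 0.22 (without WT replicate 5) to 0.51 (without WT replicate 1) on 1417409_at. On 1448694_at it gave 0.19 without KO replicate 2, 0.22 without WT replicate 1 or WT replicate 2, and 0.74 without WT replicate 4, and a floor of 32 gave 0.072. Over the 10 livers the 2 Jun probe sets had r = -0.16.

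Junb, a Jun relative that gives a weaker AP-1, gave 26.8, 55.5, 22.6, 44.9 and 26.6 in KO livers, against 35.7, 22.1, 24.7, 11.3 and 30.2 in WT livers. KO replicates 2 and 4 stood highest and WT replicate 4 lowest, under the floor, while the rest of both genotypes mixed. The genotypes differed by a log2 value of 0.42 ± 0.32 (SE; limma adjusted p = 0.729), with a 95% interval from -0.25 to 1.09. It was 0.23 without KO replicate 2, 0.26 without WT replicate 4 and 0.23 with a floor of 32.

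Egr1, a zinc finger factor that responds to serum and growth factors, varied most within the KO livers. It gave 96.6, 346, 221, 244 and 224 in KO livers, against 127, 196, 203, 185 and 194 in WT livers. The lowest and the highest of all 10 livers were KO replicates 1 and 2, a 3.59-fold range, while 4 of the WT livers lay between 185 and 203. The log2 difference was 0.23 ± 0.25 (SE; limma adjusted p = 0.834), with a 95% interval from -0.30 to 0.76. It moved from 0.052 without KO replicate 2 to 0.51 without KO replicate 1.

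Klf2, a Krüppel-like factor best known from endothelium under flow and from quiescent lymphocytes, gave 90.0, 44.9, 75.3, 107 and 75.1 in KO livers, against 68.3, 72.2, 106, 81.2 and 105 in WT livers. KO replicate 2, the highest liver for 6 other members by their brightest probe sets, was the lowest here. The log2 difference was -0.17 ± 0.23 (SE; limma adjusted p = 0.876) and had the opposite sign, 0.015, without that liver. The 9 endothelial markers, Lyve1 and Stab2 the brightest, summed to between 1181 and 1415 in KO livers and between 1133 and 1305 in WT livers. Limma called 0 of these 9 markers, against 0.328% of all genes, and none was under the floor in every liver. Their part in the Klf2 values was not tested.

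Klf6, a relative expressed in stellate cells and many others, had 5 probe sets, of which 4 were tested. The brightest (1433508_at) gave 109, 152, 106, 112 and 102 in KO livers, against 113, 91.9, 109, 65.5 and 93.7 in WT livers. KO replicate 2 stood above all others and WT replicate 4 below, with the remaining livers close together. This gave a log2 difference of 0.30 ± 0.18 (SE; limma adjusted p = 0.628), a 1.23-fold difference with a 95% interval from 0.947 to 1.61. Without KO replicate 2 the log2 difference was 0.20 and without WT replicate 4 it was 0.18. The other tested sets had positive differences of 0.47 (1418280_at, with 4 livers under the floor, and 0.012 with a floor of 32), 0.11 (1427742_a_at) and 0.058 (1447448_s_at), at limma adjusted p-values of 0.621, 0.915 and 0.973. The remaining set, 1459718_x_at, was under 16 in 7 of 10 livers and was not tested.

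Ier2, a small nuclear protein among the first induced by growth factors, had the smallest unadjusted limma p of the members, 0.0883. It gave 168, 226, 191, 199.5 and 199.5 in KO livers, against 153, 148, 188, 209 and 143 in WT livers. Of the WT livers, replicates 3 and 4 lay within the KO range and the other 3 below it. KO minus WT, in log2 units, was 0.23 ± 0.13 (SE; limma adjusted p = 0.599), a 1.18-fold difference with a 95% interval from 0.973 to 1.42.

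Dusp1, the phosphatase that switches MAP kinases off again, was nearly level between the genotypes. It gave 598, 810, 709, 561 and 574 in KO livers, against 564, 715, 656, 652 and 661 in WT livers. The WT livers lay inside the KO range, which ran from replicate 4 to replicate 2. The difference was 0.994-fold with a 95% interval from 0.859 to 1.149 (limma adjusted p = 0.987), and its sign changed with the scaling of the arrays.

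Btg2, an antiproliferative protein that binds the deadenylase complex and is also induced by p53, was read by a pair of bright probe sets. Probe set 1416250_at gave 395, 413, 344, 383 and 407 in KO livers, against 318, 515, 399, 355 and 517 in WT livers. The KO livers kept within a narrow range that the WT livers exceeded on both sides. KO minus WT was -0.091 ± 0.12 (SE; limma adjusted p = 0.876), a 0.939-fold difference with a 95% interval from 0.783 to 1.13. Probe set 1448272_at ran from 234 to 410 in KO livers and from 259 to 478 in WT livers, with a difference of -0.027 ± 0.17 (limma adjusted p = 0.977). The pair had r = 0.40 over the 10 livers.

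**Figure D2:**
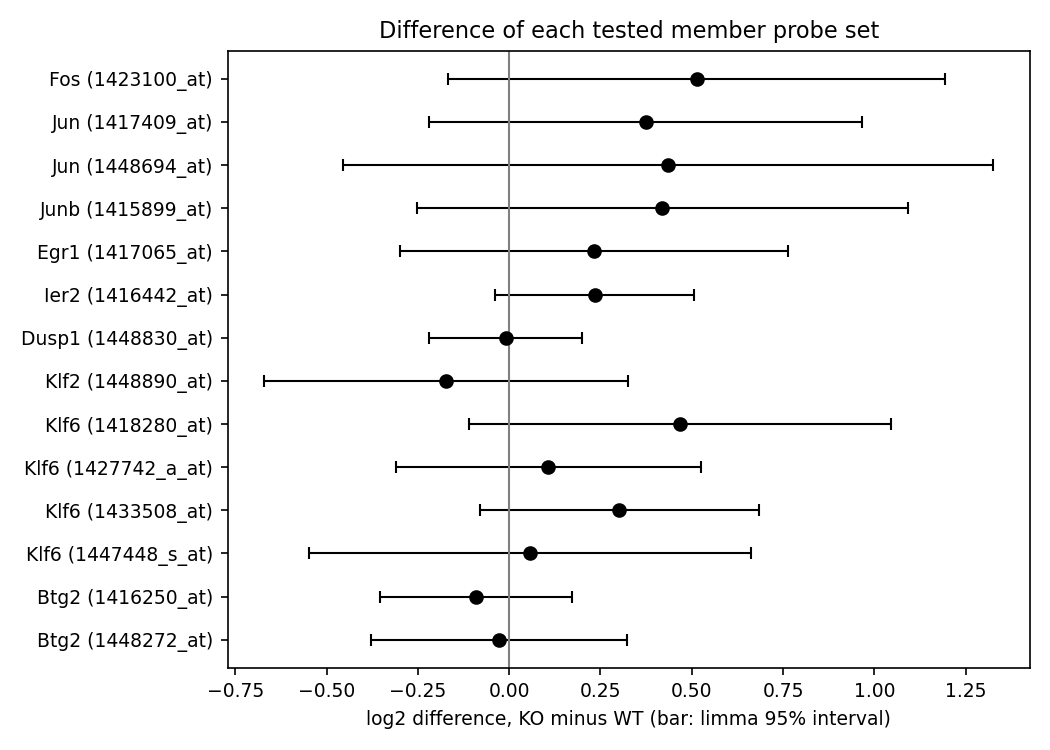
The log2 difference, KO minus WT, of each of the 14 tested member probe sets (points) with its limma 95% interval (bars). All 14 intervals include 0, and 10 of the 14 have an upper bound under a 2-fold rise.

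The bounds differed between members. For 10 of the 14 tested probe sets the 95% interval ended below a 2-fold rise, and for Dusp1, Ier2 and Btg2 it stayed within 1.42-fold upward. For Fos, Junb, the Jun probe set 1448694_at and the Klf6 probe set 1418280_at its upper end was at log2 differences of 1.19, 1.09, 1.33 and 1.04, so a doubling could not be told from no change there. A p that misses the threshold does not show that these genes were alike in the 2 genotypes.

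Dusp1 and Btg2 were the members whose promoters held the full cyclic AMP response element TGACGTCA, to which CREB and ATF factors bind, and they are printed for that reason. The windows run from 250 bases before to 50 after the start of the gene (RefSeq, GRCm38.p6), and 8 of the 10 members had one. Egr1 and Ier2 had none in the reference used, so their promoters were not searched. Capitals mark TGACGTCA, and in Btg2 also a match to GCGNGGGCG, the form bound by EGR proteins.
Dusp1 (chr17:26508423-26508722, minus strand): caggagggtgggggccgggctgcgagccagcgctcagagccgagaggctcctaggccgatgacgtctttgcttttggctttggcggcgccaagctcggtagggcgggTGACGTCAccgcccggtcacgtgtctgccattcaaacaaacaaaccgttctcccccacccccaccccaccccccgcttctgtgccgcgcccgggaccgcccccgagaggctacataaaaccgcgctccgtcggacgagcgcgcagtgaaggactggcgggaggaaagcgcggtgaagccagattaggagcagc
Btg2 (chr1:134079106-134079405, minus strand): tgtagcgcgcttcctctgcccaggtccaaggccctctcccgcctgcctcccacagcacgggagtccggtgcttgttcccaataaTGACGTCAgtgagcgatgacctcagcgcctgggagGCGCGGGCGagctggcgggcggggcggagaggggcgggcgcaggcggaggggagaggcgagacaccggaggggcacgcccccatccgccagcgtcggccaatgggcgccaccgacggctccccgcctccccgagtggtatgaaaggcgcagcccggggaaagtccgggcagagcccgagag
The element lies 143 to 136 bases before the start of Dusp1 and 166 to 159 bases before that of Btg2. It was found on either strand in 1.79% of all 32851 windows, and GCGNGGGCG in 5.55%, Btg2 and Klf2 among them. The sequence GGGCGG, a GC box, stood in 7 of the 8 member windows, all but that of Junb, and in 35.7% of all windows. TGAGTCA, the AP-1 site, and the CArG box, bound by the serum response factor, matched in 0 of the 8 windows, against 5.20% and 1.63% of all. Motifs were searched as exact letters and may overlap, as GGGCGG does with GCGNGGGCG in Klf2.

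Co-variation was examined over the 8 members with at most 2 livers at the floor, which left out Fos and Atf3. Of their 28 pairs 19 were positive, with a median Pearson's r of 0.16. Over all pairs of other tested genes the median r was 0.00 and 49.97% were positive. None of the 28 pairs passed Benjamini-Hochberg adjustment over the 28, by r or by Spearman's rho (permutation tests, two-sided), and 2 had an unadjusted permutation p under 0.05 by each measure. The median r was 0.082 with each genotype's mean subtracted and -0.040 without KO replicate 2.

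**Figure D3:**
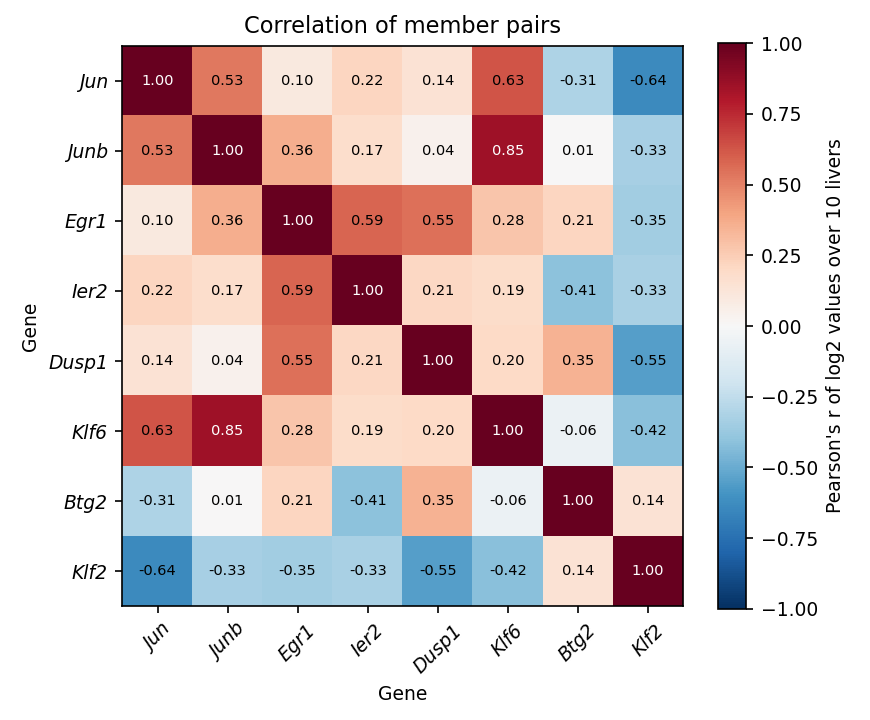
Pearson's r of the log2 values of each pair of the 8 members over 10 livers, 1 probe set a gene (colour and printed value). Junb and Klf6 have the highest value, 0.85, and Klf2 is negative with 6 of the other 7 members.

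Junb and Klf6 had the highest correlation, r = 0.85 (permutation p = 0.00257, adjusted p = 0.0720 over 28 pairs) and rho = 0.81 (permutation p = 0.00779, adjusted p = 0.218). Without KO replicates 2 and 4, the livers farthest from the median of Junb, r was 0.79 (exact permutation p = 0.0291). With genotype means subtracted it was 0.81 (exact permutation p = 0.00368, adjusted p = 0.103). The relation rested on the brightest Klf6 probe set: Junb had r = 0.011 with 1427742_a_at and -0.22 with 1447448_s_at. Their promoters are printed as those of the most alike pair; neither held the response element, the AP-1 site, the EGR form or the CArG box, so no base is in capitals.
Junb (chr8:84978699-84978998, minus strand): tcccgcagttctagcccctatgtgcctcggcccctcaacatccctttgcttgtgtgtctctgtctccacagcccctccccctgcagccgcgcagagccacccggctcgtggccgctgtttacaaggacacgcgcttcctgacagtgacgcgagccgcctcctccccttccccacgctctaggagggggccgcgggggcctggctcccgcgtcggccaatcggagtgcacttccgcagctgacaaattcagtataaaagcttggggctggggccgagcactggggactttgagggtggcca
Klf6 (chr13:5861239-5861538, plus strand): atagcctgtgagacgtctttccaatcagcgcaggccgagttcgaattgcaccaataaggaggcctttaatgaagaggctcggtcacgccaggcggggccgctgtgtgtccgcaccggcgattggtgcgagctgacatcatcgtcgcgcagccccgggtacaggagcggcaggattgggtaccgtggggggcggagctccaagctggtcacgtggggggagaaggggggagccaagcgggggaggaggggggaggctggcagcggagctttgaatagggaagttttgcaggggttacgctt
The Klf6 window held a GC box 63 to 58 bases before the start. Letters missing from a window of this length say nothing of the factors that act on the gene.

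Of the other pairs, 5 had an unadjusted permutation p under 0.1. Jun and Klf6 had r = 0.63 (permutation p = 0.0519) and rho = 0.65, and 0.50 without WT replicates 4 and 5. That relation depended on the probe sets. Jun 1417409_at had r = -0.50 with Klf6 1427742_a_at and 0.29 with 1447448_s_at, and Jun 1448694_at had 0.0060 with the brightest Klf6 set. Egr1 and Ier2 had r = 0.59 (permutation p = 0.0728) and rho = 0.58, and 0.51 without KO replicates 1 and 2. Egr1 and Dusp1 had r = 0.55 (permutation p = 0.0977) but rho = 0.22, and 0.17 without KO replicates 1 and 2, so that relation rested on those livers. Klf2 had r = -0.64 to Jun (permutation p = 0.0437, rho = -0.61), but -0.12 to the Jun probe set 1448694_at. To Dusp1 it had r = -0.55 (permutation p = 0.0977, rho = -0.38). The Dusp1 relation had the opposite sign, r = 0.17, without KO replicates 2 and 4. Without the same livers Klf2 had r = 0.027 with Junb and 0.019 with Klf6, against -0.33 and -0.42 over all 10. With Egr1 it had -0.35, but 0.47 without KO replicates 1 and 2. It stayed at -0.66 with Jun without WT replicates 4 and 5, and at -0.30 with Ier2 without WT replicates 2 and 5. The 5 pairs with an unadjusted permutation p under 0.1 all had adjusted p = 0.456 for r over the 28 pairs.

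Probe sets of the same gene did not follow each other closely over the livers. The 5 within-gene pairs with enough values, from Jun, Klf6 and Btg2, had r between -0.47 and 0.40, with permutation p-values between 0.173 and 0.761 and adjusted values of at least 0.642 over the 5. The 3 measured Klf6 probe sets were all negatively correlated with each other.

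The pattern that recurred was that of 1 liver. With 1 probe set a gene, KO replicate 2 was the highest of all 10 livers for 6 of the 8 members. These were Jun, Junb, Egr1, Ier2, Dusp1 and Klf6, and it was the lowest for Klf2. Over all tested genes it was the highest for 11.5% and the lowest for 14.6%. Its log2 value lay above the gene's mean by 0.95 for Junb, 0.84 for Egr1, 0.56 for Jun, 0.55 for Klf6 and 0.33 for both Ier2 and Dusp1, while the deviation of Klf2 was -0.84. Btg2, at 0.045 on its brighter probe set (1416250_at), was near its mean. On the Btg2 probe set 1448272_at, however, KO replicate 2 was the lowest of all 10 livers, at 234. Averaged over the 8 members, this liver stood at 0.35 and KO replicate 4 at 0.21. The other 3 KO livers lay between -0.12 and -0.0099, and the WT livers between -0.24 and 0.0090. KO replicate 2 was not the highest on the other tested Klf6 probe sets. It read 54.8 on 1447448_s_at (35.7 to 103 over all livers), 63.7 on 1427742_a_at (51.3 to 83.4) and 20.5 on 1418280_at (5.16 to 33.3). This liver was singled out after its values were seen.

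**Figure D4:**
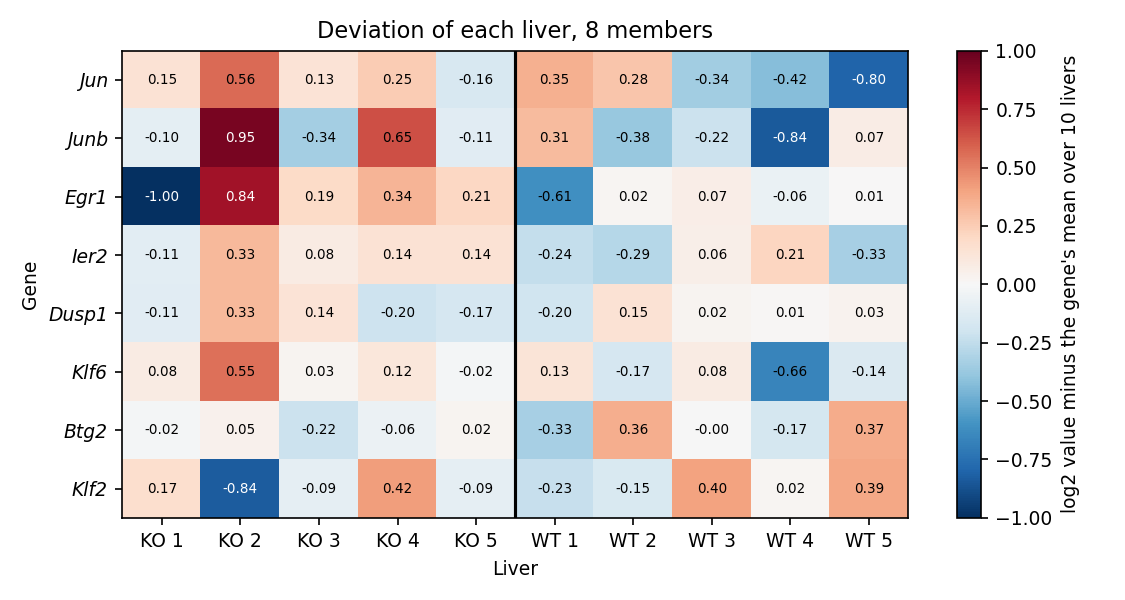
The log2 value of each liver minus the gene's mean over 10 livers, for the 8 members (rows) in KO livers (left of the line) and WT livers (right). Each gene is shown by 1 probe set. The column of KO replicate 2 is positive for every gene but Klf2, where it is -0.84, and the Egr1 row is lowest in KO replicate 1.

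Other lists also had their highest mean in KO replicate 2, measured as the mean deviation of a list's tested genes. For the 8 hypoxia-induced genes, Ldha and Slc2a1 the brightest, it was 0.56 there, against -0.014 to 0.18 in the other KO livers and -0.28 to -0.11 in WT livers. Limma called 3 of the 8 (Ero1a, Pgk1 and Ldha) higher in KO livers, against 0.156% of all genes. These 8 summed to between 17121 and 21494 in KO livers and between 14962 and 16794 in WT livers. For stellate and mesenchymal markers, Col3a1 and Col1a2 the brightest, the liver stood at 0.59, against -0.46 to 0.20 in the other KO livers and -0.18 to 0.076 in WT livers. Those 7 markers summed to between 1819 and 3415 in KO livers and between 2128 and 2712 in WT livers, with 0 of 6 tested called. For macrophage markers, Vcam1 and Csf1r the brightest, it was 0.31, against -0.035 to 0.23 in the other KO livers and -0.40 to 0.15 in WT livers. Mrc1, Cd68, Adgre1 and Marco were highest in that liver, but C1qa, C1qb and C1qc in KO replicate 3 and Csf1r in KO replicate 1. Vcam1 was highest in KO replicate 4, and at 802 KO replicate 2 was the lowest KO liver for it. The 9 macrophage markers summed to between 4067 and 4878 in KO livers and between 3027 and 4793 in WT livers, with 0 of 9 called. All 9 had positive log2 differences, with a median of 0.38, and 4 had an unadjusted limma p under 0.05, against 11.4% of all genes. Over all tested genes 0.328% were called in either direction. Of the 7 megakaryocyte markers, Ppbp and Pf4 the brightest, 5 were called lower by limma, against 0.172% of all genes. The 7 summed to between 1573 and 2592 in KO livers and between 3794 and 5446 in WT livers. None of these lists had a marker under the floor in all 10 livers. Over the 10 livers the members' mean deviation had r = 0.71 with the hypoxia list, 0.73 with the stellate list, 0.52 with the macrophage list and -0.66 with the megakaryocyte list, as a description. With the wider immediate early list described below it had r = 0.65. That list was not highest in KO replicate 2, at 0.18 there and 0.19 in KO replicate 4. The lists not named in this paragraph had r from -0.21 (lymphoid) to 0.33 (kinases and factors of immediate early promoters). For heat shock genes, Hspa8 and Hsp90aa1 the brightest, KO replicate 2 stood at 0.77, against -0.58 to 0.60 in the other KO livers and -0.41 to 0.26 in WT livers. Only Hspa1b (353) and Hspa1a (86.5, with 8 livers under the floor) were highest in that liver. Hspa8 was highest in KO replicate 3, Hsp90aa1 in KO replicate 4, Hsph1 in KO replicate 1 and Dnajb1 in WT replicate 3. KO replicate 1, whose members' mean was -0.12, had the next highest heat shock value, and r with the members' mean was 0.34. These 6 genes summed to between 14811 and 18556 in KO livers and between 15217 and 17486 in WT livers, with 0 of 6 called by limma. The part of these cells and genes in the members' values was not tested.

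Among 6747 other genes with a mean intensity over 100, those most like the members' mean over the 10 livers were Akt1 (r = 0.92), Tnfrsf21 (0.90), Mir22hg (0.87), Mest (0.87), Tns3 (0.87) and Slc20a1 (0.86). The most opposed were Wtap (-0.94), Abcb4 (-0.93) and Rp9 (-0.90). Akt1 gave 316, 400.2, 345, 366 and 322 in KO livers and 323, 311, 333, 314 and 330.3 in WT livers, again highest in KO replicate 2. An r over 0.8 was reached by 0.252% of the genes ranked. Unrelated values over 10 livers would reach it in about that share, so the ranking does not show that any of these genes follows the members. None of the 9 passed the test between the genotypes (limma adjusted p between 0.289 and 0.832).

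A wider list of 36 immediate early genes outside the members gave a single call. Of the 29 tested, 18 had positive and 11 negative differences, with a median of 0.11 beside a median of 0.00018 over all tested genes. Limma called 1 of the 29 higher and 0 lower, against 0.156% and 0.172% of all genes, and 7 had an unadjusted p under 0.05, against 11.4% of all genes. The called gene was Nfkbia, which encodes the inhibitor that holds NF-kappa-B in the cytoplasm. Its brightest probe set gave 714, 725, 662, 494 and 649 in KO livers, against 373, 426, 378, 362 and 468 in WT livers. All KO livers lay above all WT livers, where 2.27% of all tested probe sets had no overlap in either direction. The log2 difference was 0.69 ± 0.10 (SE; limma adjusted p = 0.0148). The call was lost in 6 of 21 alternatives: both other floors (limma adjusted p = 0.0517 and 0.0759), no filter (0.166), no trend (0.168), and without WT replicate 3 (0.0503) or WT replicate 4 (0.0538). The other 3 tested Nfkbia probe sets had smaller differences of 0.39, 0.30 and 0.24 (limma adjusted p = 0.314, 0.761 and 0.686), in which the genotypes overlapped.

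**Figure D5:**
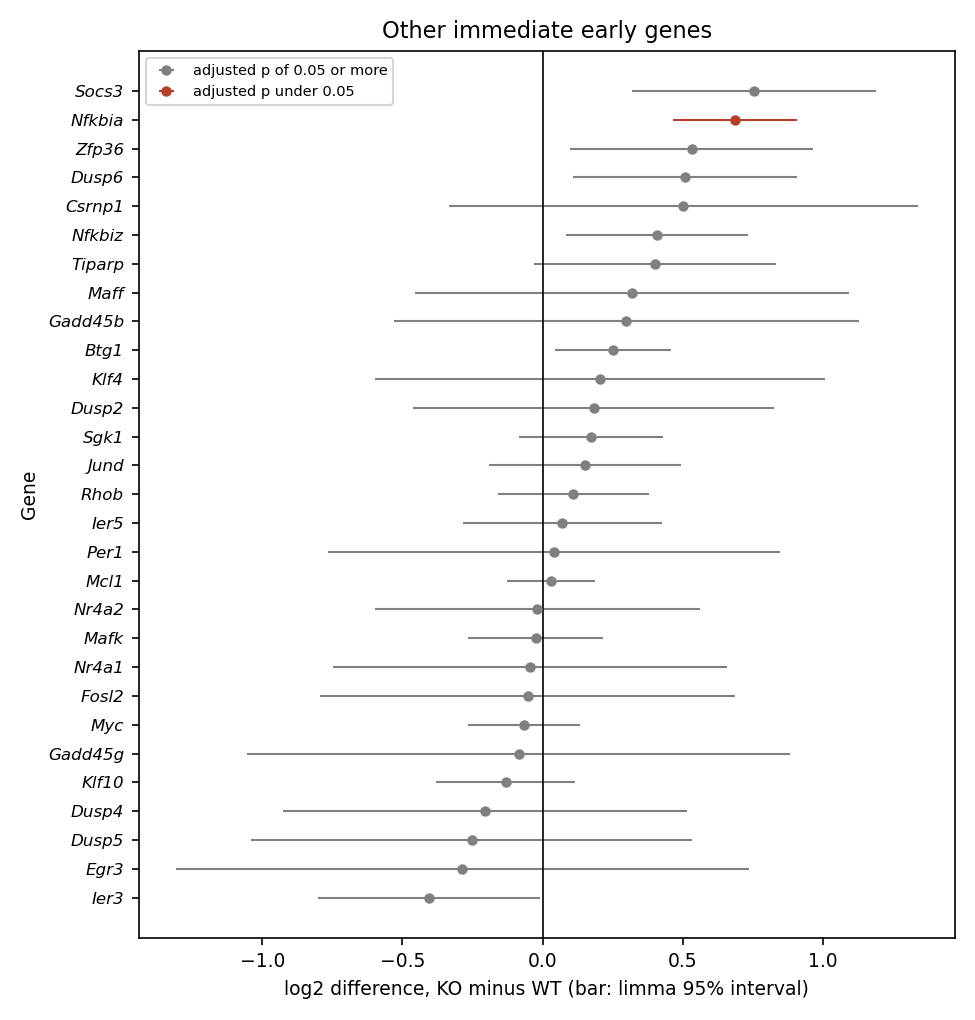
The log2 difference, KO minus WT, of the 29 tested genes of the wider immediate early list (points) with limma 95% intervals (bars). Nfkbia, in red at 0.69, is the gene whose adjusted p is under 0.05.

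The next brightest genes of the wider list were not called. Mcl1, an anti-apoptotic protein with a short-lived message, averaged 1357 ± 85.5 in KO livers and 1333 ± 144 in WT livers (SD, n = 5 each; limma adjusted p = 0.944). Jund, the Jun relative present in resting cells, averaged 775 ± 147 and 709 ± 218 (limma adjusted p = 0.83), and Myc, a growth regulator, 383 ± 38.2 and 401 ± 44.6 (limma adjusted p = 0.882). Rhob, a small GTPase, averaged 276 ± 52.3 in KO livers and 253 ± 26.9 in WT livers (limma adjusted p = 0.847). Btg1, a relative of Btg2, averaged 504 ± 39.0 in KO livers and 427 ± 68.5 in WT livers, a log2 difference of 0.25 ± 0.10 (SE; limma adjusted p = 0.393).

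Besides Nfkbia and Btg1, 5 further genes had an unadjusted p under 0.05 and are named for that after their values were seen. Socs3, a brake on cytokine receptors, had a log2 difference of 0.76 ± 0.20 (SE; limma adjusted p = 0.163). Zfp36, the founding member of the Zfp36l2 family, ran from 64.4 to 85.4 in KO livers and from 42.8 to 65.5 in WT livers, a difference of 0.53 ± 0.20 (limma adjusted p = 0.385). Dusp6, a phosphatase for ERK, had 0.51 ± 0.19 (adjusted p = 0.355) and Nfkbiz, a nuclear NF-kappa-B regulator, 0.41 ± 0.15 (adjusted p = 0.363). Ier3, a survival gene, had a negative difference of -0.41 ± 0.19 (limma adjusted p = 0.499). None of these 5 passed the threshold.

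The kinases and factors that act on immediate early promoters were not called either. Of 18 listed genes 12 had a probe set with a single symbol and 11 were tested. Limma called 0 of the 11, against 0.328% of all genes, and 3 had an unadjusted p under 0.05, against 11.4%. There were 4 positive and 7 negative differences, where 50.1% of all genes were positive, and the median was -0.082. Map2k1, which phosphorylates ERK, averaged 554 ± 44.1 in KO livers and 460 ± 29.3 in WT livers, a log2 difference of 0.27 ± 0.07 (SE; limma adjusted p = 0.173). Its genotypes did not overlap, as in 2.27% of all tested probe sets (either direction). Mapk8, a Jun kinase, had 0.52 ± 0.19 (limma adjusted p = 0.33). Creb1, which binds TGACGTCA, averaged 395 ± 43.9 in KO livers and 453 ± 31.9 in WT livers, a difference of -0.20 ± 0.09 (limma adjusted p = 0.454). Mapk14, a stress kinase, averaged 818 ± 29.9 and 845 ± 17.3 (limma adjusted p = 0.848), and Map2k2 350 ± 31.1 and 375 ± 30.8 (limma adjusted p = 0.764).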

How the data were processed

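Total RNA of single fetal livers was turned into biotin-labelled cRNA with an Affymetrix one-cycle kit, per the labels' protocols. The deposited values are linear probe-set intensities, 1 column per array. They run from -1090 to 18272, and 21.5% are at or below 0. Which software and scaling the authors used is not stated in the labels.

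Arrays were quantile-normalized, values under 16 set to 16, and log2 taken. Probe sets under the 40th percentile of mean log2 value were left out. An earlier analysis of these data used the lowest positive value, 0.000978, as its floor, which inflates dim folds. Limma 3.58.1 (R 4.3.3; lmFit, eBayes with trend, genotype only, two-sided) was run on 27022 probe sets, with Benjamini-Hochberg adjustment over all and a threshold of 0.05; its 95% intervals are unadjusted. Where a gene had several probe sets, the brightest on average stands for it. Correlations used 100000 permutations with 10 livers and all permutations with fewer, or within genotypes where means were subtracted. Methods were tested on simulated data. Figures were drawn with matplotlib 3.10.9.

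Probe sets carried 1 symbol (34945), several (932) or none (9160) in the platform annotation. Precision is limited by the number of arrays. The members and lists were chosen with earlier results of these data known. The text names every member, the called and brightest genes of the wider lists and the 2 brightest of each marker list used. It also names the genes most and least like the members' mean. Genes with an unadjusted limma p under 0.05, Hspa1b and Tat were singled out after their values were seen. The same holds for the other heat shock and macrophage genes named for their highest liver. So were the pairs with a permutation p under 0.1 and KO replicate 2. Alternatives covered normalization, floor, filter, variance model, array weights, a replicate block and leaving out each liver.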

Additional observations from a re-analysis of the deposited data

Results flagged for a closer look

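By Dixon's criterion 4 values lay far from the remaining livers of the same genotype. The criterion was applied to 66 sets of 5 livers, and chance alone marks about 1 set in 20, or 3.3. Klf6 (1433508_at) was high in KO replicate 2, at a log2 value of 7.24 with the nearest KO liver at 6.81. Egr1 was low in WT replicate 1, at 6.98 with the nearest WT liver at 7.53. Zfp36l2 was low in KO replicate 2, at 6.36 with the nearest at 6.68, and high in WT replicate 3, at 9.22 with the nearest at 8.63.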

How the results depend on the processing

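No member probe set was called under any of the 21 alternatives. Called probe sets numbered 57, 29 higher and 28 lower, and 94 with median scaling (69 higher and 25 lower), 57 without normalization, 11 with the lowest positive floor, 12 with a floor of 32, 4 without the filter, 16 with the filter at the 20th percentile, 9 without trend, 101 with a robust trend and 103 with array weights. They were 29, 34, 33, 15 and 20 without KO replicates 1 to 5, and 24, 30, 16, 13 and 168 without WT replicates 1 to 5. Deviations of same-numbered livers correlated at 0.028 to 0.13, against -0.095 to 0.074 for different numbers. Pairing needed over 0.1 in all 5 pairs, which was not met, so livers were not treated as paired, although 7 of 10 correlated best with their own number, a hint from the data and not the design. With the number as a replicate block 179 probe sets were called and no member. Nfkbia, the 1 call of the wider list, was lost, leaving 0, with the lowest positive floor, a floor of 32, no filter or no trend, and without WT replicate 3 or 4 (limma adjusted p = 0.0503 and 0.0538); leaving out single livers gave 0 to 1 calls and log2 differences of 0.64 to 0.78. Of member pairs 0 were called, and 1, Junb and Klf6, with median scaling (r = 0.86, permutation adjusted p = 0.0479) and with the lowest positive floor (r = 0.90, adjusted p = 0.0487); leaving out single livers gave 0. The median r ran from -0.040 to 0.19 over the left-out livers. Uncalled differences near 0 changed sign: with median scaling Dusp1 was at 0.070, Btg2 (1448272_at) at 0.040, Myc at 0.0042 and Mapk14 at 0.040, and over left-out livers Dusp1 ran from -0.092 to 0.040, Klf2 from -0.30 to 0.015, Klf6 (1447448_s_at) from -0.19 to 0.19, Btg2 (1448272_at) from -0.12 to 0.11 and Mcl1 from -0.016 to 0.083. The pair Dusp1 and Klf2 was at 0.17 without the 2 livers farthest from the median. The cause of these changes was not tested.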

Other observations

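Several immediate early genes of the wider list could not be read in these livers. Fosl1, Nr4a3 and Arc lay under 16 in all 10 livers, Egr2 in 9 and Fosb in 7. Per1, a clock gene with an immediate early response, lay under it in 6.

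The inducible heat shock gene Hspa1b also split the livers without regard to genotype. It gave 312, 353, 48.3, 55.3 and -0.851 in KO livers, against 209, 46.1, 46.7, 46.4 and 30.1 in WT livers. KO replicates 1 and 2 and WT replicate 1 stood at 209 or above and the other 7 at 55.3 or below (limma adjusted p = 0.860 between genotypes). Of these 3 livers, KO replicate 2 had the highest Egr1 value, and KO replicate 1 and WT replicate 1 the lowest values. This was noticed after the values were seen.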
